A study of Mus musculus with 67 samples.

Results

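Among 45707 rows counted in cultured mouse microglia, 77 were higher with lipopolysaccharide (LPS) and lower with thapsigargin plus PDBu (Tg+PDBu) in wild-type cells. They were picked from 18 WT culture libraries alone. The mean of log2(CPM + 1), where CPM is the count scaled to a common library total, had to be at least 1 above vehicle with LPS and at least 1 below vehicle with Tg+PDBu. All 77 rows that met both limits were kept. Another 829 rows met the LPS limit alone and 1795 met the Tg+PDBu limit alone. Neither table carries gene names or identifiers, so each row is given by its number counted from the first data row, and no name, function or sequence is attached to it. The rows lay between row 126 and row 38373, and no pair of them was adjacent.

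The choice had soft edges. Row 1180 was the member with the smallest LPS difference, 1.02 on the log2 scale, and row 4485 stood just outside with 0.95. Row 4209 was the member with the smallest Tg+PDBu difference, -1.01, and row 19686 stood just outside with -0.99. Leaving out single WT libraries gave 69 to 85 rows, and 69, with 66 of the 77 among them, came without WT female vehicle replicate 2. Scaling CPM by TMM library sizes gave 96 rows, of which 63 were among the 77.

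Microglia are the resident immune cells of the brain. LPS, a component of the outer membrane of Gram-negative bacteria, is sensed through Toll-like receptor 4 and turns on inflammatory genes through NF-kB and interferon signalling. Thapsigargin (Tg) blocks the calcium pump of the endoplasmic reticulum, so the calcium stores run empty and store-operated channels open in the plasma membrane. Orai1 forms the pore of these channels. PDBu belongs to the phorbol esters, which switch on protein kinase C.

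KO animals were Orai1fl/fl Cx3CR1-cre/ERT2 and WT animals were Orai1fl/fl, so loss of Orai1 and presence of the tamoxifen-dependent Cre, driven from Cx3CR1, cannot be told apart. Primary cultures came from the hippocampus of pups at P2 to P5, and cultures of each genotype received 1 µM OH-tamoxifen. They were then treated for 6 h with LPS (10 ng/ml), with thapsigargin (0.2 µM) plus PDBu (50 nM), or with DMSO vehicle. KO cultures gave 5 libraries with LPS, 5 with Tg+PDBu and 6 with vehicle, and WT cultures gave 6 of each. The other table held microglia sorted from whole brain of tamoxifen-treated mice of 10 to 12 weeks, 30 to 35 days after tamoxifen, which had received LPS at 1 mg/kg intraperitoneally or vehicle. Its groups were KO and WT males 6 h after LPS (3 libraries each), KO and WT of either sex 24 h after LPS (7 and 8), and KO and WT vehicle (6 each). A sheet deposited with the sorted counts calls the preparation cultured primary microglia, and the sample labels were followed instead. Without row names neither the cell type nor the loss of Orai1 could be checked.

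Culture libraries held 7868694 to 16070721 counts and sorted libraries 4989974 to 7596706. Rows stood in the same order in the pair of tables, as far as levels show: mean levels correlated across 26168 rows with a Spearman rho of 0.853, against at most 0.347 with one table moved by 1 to 3 rows. Some libraries stood apart. One row separated all sorted females from all sorted males and 4 rows did the reverse, each by 2 or more on the log2 scale. In the 3 libraries of WT female culture 3, the female row had 212 to 442 CPM and the 4 male rows 77.5 to 105 CPM together. In the other 13 female culture libraries these were 522 to 1019 and 0 to 8.15 CPM, so WT female culture 3 lay between the sexes. Leaving out its 3 libraries gave 85 rows by the same rule, 74 of them among the 77. Among the sorted libraries, KO male 6 h replicate 1 and WT male 6 h replicate 3 lay closest to vehicle. Over all tested rows, 2106 and 2117 differed over 2-fold from the male vehicle mean in these 2 libraries, against 3895 to 4441 in the other 4. The 6 h libraries also formed a run of library numbers of their own with no vehicle library in it, so time after LPS and that run cannot be told apart.

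Together, the 77 rows took up a larger share of counts with LPS and a smaller share with Tg+PDBu in KO cultures too. The share was 1.31 ± 0.240% with LPS (SD, n = 5), 0.227 ± 0.0254% with Tg+PDBu (n = 5) and 0.408 ± 0.0460% with vehicle (n = 6) in KO cultures. In WT cultures, whose values chose the rows, it was 2.59 ± 0.225%, 0.205 ± 0.0138% and 0.599 ± 0.0996% (n = 6 each). The median level over the rows ran from 5.95 to 6.52 in KO LPS libraries, from 3.31 to 4.08 in KO Tg+PDBu libraries and from 4.54 to 5.28 in KO vehicle libraries, as log2(CPM + 1). The KO groups did not overlap. These are bulk libraries, so fewer cells of a type and less RNA per cell cannot be told apart. In sorted cells the share differed less between treatments: it was 0.709 ± 0.0291% in KO vehicle mice (n = 6), 0.846 ± 0.0790% at 6 h (n = 3) and 0.935 ± 0.0909% at 24 h (n = 7). In sorted WT cells it was 0.716 ± 0.0367%, 0.870 ± 0.0600% and 0.961 ± 0.128% (n = 6, 3 and 8).

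**Figure D1:**
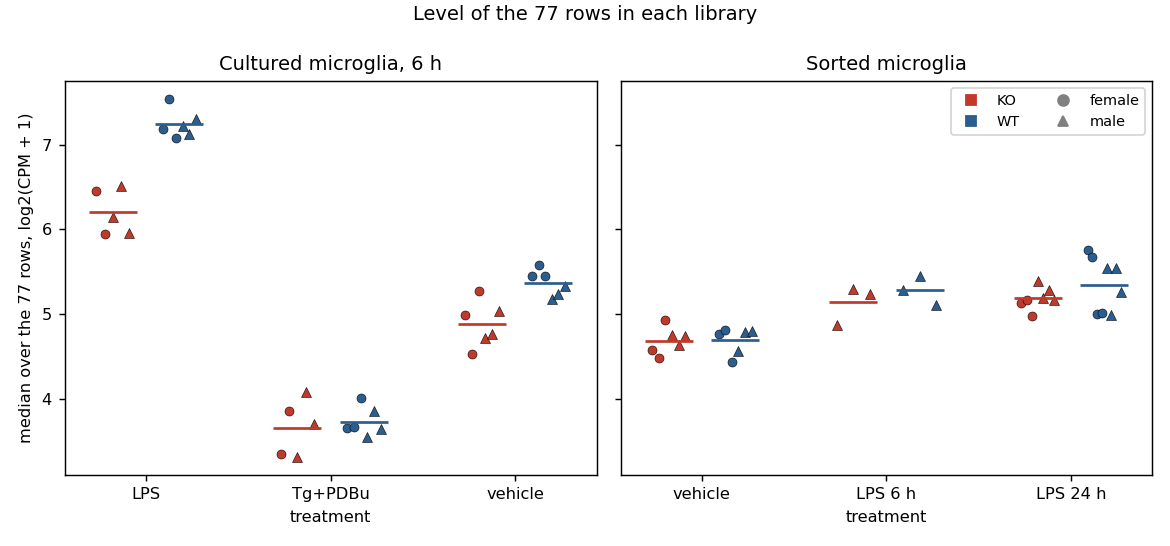
Median over the 77 rows in each library, as log2(CPM + 1), by treatment, with KO left of WT, circles for females, triangles for males and a bar at the group mean. In KO cultures LPS libraries lie above 5.9, vehicle libraries between 4.5 and 5.3 and Tg+PDBu libraries below 4.1, and sorted libraries span a narrower range.

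In KO cultures LPS raised most of the rows. Of the 77 rows, 60 were higher with LPS than with vehicle and 0 lower at an adjusted p under 0.05 (edgeR quasi-likelihood test, Benjamini-Hochberg over 15979 rows). Over all rows tested, 8.71% were called higher and 14.1% lower. The median log2 change over the 77 rows was 1.33, against -0.14 over all rows, and 75 of the 77 changes were above 0. Beyond a 2-fold change, 50 of the 77 were called, against 1297 of all 15979 rows in either direction. With RLE scaling the median of all rows moved by 0.11, to -0.03, and that of the 77 rows to 1.45. The split over all rows then turned to 1919 higher and 1461 lower, against 1391 and 2256 by TMM. For comparison, 657 of the 829 rows that met the LPS limit alone were called higher in KO cultures, with a median of 1.46.

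Rows 13484 and 15273 had the largest difference between the stimuli in WT cultures and also the largest LPS changes in KO cultures. Row 13484 had 33.1, 69.9, 84.8, 88.0 and 119 CPM in KO cultures with LPS, against 0.717, 1.05 and 1.47 CPM (lowest, median and highest of 6) with vehicle. Every LPS library lay above every vehicle library, and the log2 change was 6.25 ± 0.37 (SE, edgeR, Benjamini-Hochberg adjusted p = 2.37e-12). Row 15273 had 18.7, 27.1, 33.04, 50.7 and 53.1 CPM in KO cultures with LPS, against 0, 0.390 and 1.82 CPM with vehicle. Here too the groups were apart, with a log2 change of 5.90 ± 0.46 (edgeR, Benjamini-Hochberg adjusted p = 4.12e-10).

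By level, row 6785, singled out after its values were seen, led the 77 rows and alone made up 11.8% of their summed CPM in KO cultures with LPS. It had 1172, 1261, 1445, 1829.9 and 2045 CPM with LPS and 136, 186 and 270 CPM (lowest, median and highest of 6) with vehicle in KO cultures. In WT cultures its mean was 3246 ± 632 CPM with LPS and 374 ± 72.4 CPM with vehicle (SD, n = 6 each). The LPS level was above the vehicle level in every library of each genotype. The rows with the lowest LPS changes in KO cultures were not called. Row 1001 had 1.40, 1.69, 2.51, 3.31 and 3.69 CPM with LPS in KO cultures, against 2.61, 3.31 and 4.16 CPM with vehicle, and these overlapped. Its log2 change was -0.34 ± 0.33 (edgeR, Benjamini-Hochberg adjusted p = 0.534), and row 6751, at -0.04 ± 0.43, was the other one of the 77 below 0.

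Tg+PDBu lowered most of the rows in KO cultures. Of the 77 rows, 55 were lower than vehicle and 0 higher (edgeR, Benjamini-Hochberg), where 30.9% of all rows tested were called lower and 17.9% higher. The median log2 change was -1.11 over the 77 rows and -0.23 over all rows, and 73 changes were below 0. Beyond 2-fold, 40 of the 77 rows were called, against 3235 of all 15979 rows in either direction. With RLE scaling these medians became -0.98 and -0.10, and the calls over all rows were 3862 lower and 3535 higher, against 4940 and 2862 by TMM. Of the 1795 rows that met the Tg+PDBu limit alone, 1462 were called lower in KO cultures, with a median of -1.06.

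Row 13484 had 0, 0, 0.0858, 0.164 and 0.221 CPM in KO cultures with Tg+PDBu, 6 counts in all, against 71 counts and 0.717 to 1.47 CPM with vehicle. Its log2 change was -3.54 ± 0.78 (edgeR, Benjamini-Hochberg adjusted p = 0.000529), from very few reads. Row 16569 rested on more reads, with 0.530, 0.657, 0.739, 1.20 and 1.98 CPM with Tg+PDBu and 6.96, 8.74 and 11.4 CPM (lowest, median and highest of 6) with vehicle in KO cultures. No Tg+PDBu library reached the lowest vehicle library, and the log2 change was -3.16 ± 0.53 (adjusted p = 2.12e-05). The 4 rows whose KO change was above 0 were rows 1769, 2878, 4209 and 15513, with changes of 0.05, 0.07, 0.22 and 0.15. None was called, their lowest adjusted p being 0.466.

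Row 1769 was one of these 4. It had 206, 268, 271, 277 and 381 CPM with Tg+PDBu in KO cultures and 198, 238 and 321 CPM (lowest, median and highest of 6) with vehicle, so those groups overlapped. In WT cultures it had 62.9, 111 and 166 CPM with Tg+PDBu and 196, 225 and 253 CPM with vehicle. The WT values chose the row and are given without a test.

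Set directly against LPS, Tg+PDBu gave lower levels in 75 of the 77 rows and higher levels in 0 in KO cultures (edgeR, Benjamini-Hochberg), where 22.6% and 18.8% of all rows were called lower and higher. The median log2 difference was -2.48, from -9.79 to -0.71. Row 13484 gave -9.79 ± 0.56 and row 15273 gave -7.53 ± 0.59. The exceptions, named after their values were seen, were row 31504, at -1.32 ± 0.54 (adjusted p = 0.0515), and row 6751, at -0.77 ± 0.46 (adjusted p = 0.187). Because this comparison, the LPS one and the Tg+PDBu one share libraries, they are not independent of each other.

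**Figure D2:**
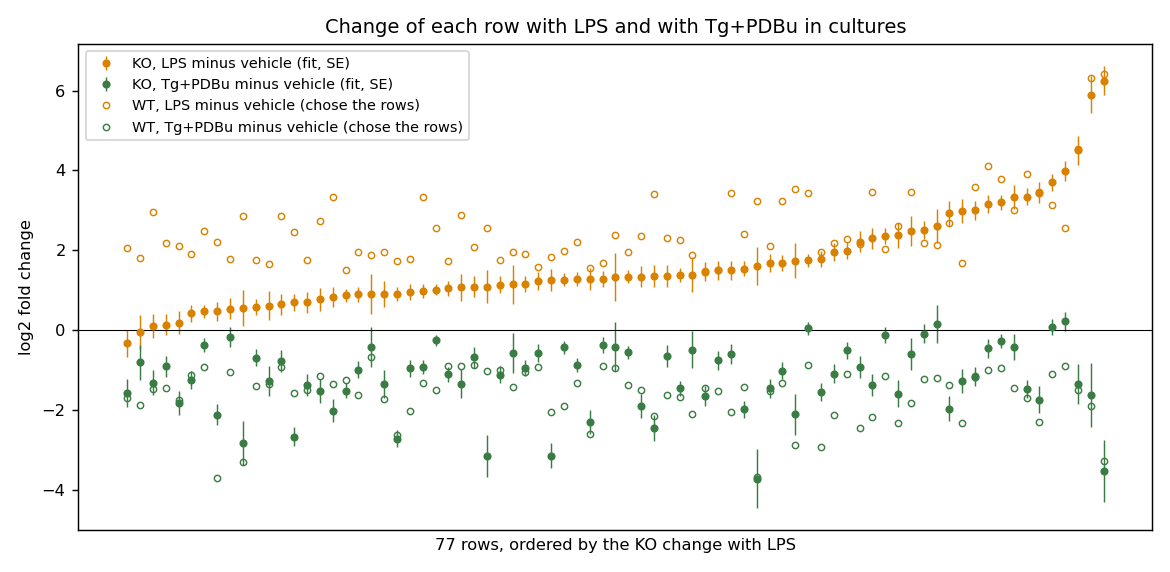
Log2 fold change against vehicle of each of the 77 rows in cultures, ordered by the KO change with LPS. Filled points are KO with their SE, open points are WT, whose libraries chose the rows, orange is LPS and green Tg+PDBu. KO changes with LPS run from -0.34 to 6.25 and KO changes with Tg+PDBu from -3.73 to 0.22.

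Beside the WT values, changes in KO cultures were smaller for most of the rows. By the TMM-scaled fit the median LPS change was 1.33 in KO and 2.21 in WT cultures, and 68 of the 77 rows had the lower LPS change in KO. This fit gave WT LPS changes of 1.48 for row 1180 and 2.56 for row 4209, the members at the limits. The log2(CPM + 1) that chose the rows gave 1.02 and 2.14. How much of the gap between genotypes goes with the scaling was not tested. With Tg+PDBu the medians were -1.11 in KO and -1.46 in WT cultures, and 57 rows had the less negative change in KO. By the TMM-scaled fit, levels on the log2 scale were also lower in KO cultures for most of the rows. The median gap was 0.89 with vehicle (64 of 77 rows), 1.66 with LPS (75 rows) and 0.46 with Tg+PDBu (52 rows). Over all rows the median KO minus WT differences by this fit were 0.02, 0.06 and -0.01. For the 829 rows that met the LPS limit alone they were -0.34, -1.56 and -0.77. The lower KO level was thus not particular to the 77 rows. For the 1795 rows that met the Tg+PDBu limit alone they were -0.23, 0.33 and 0.37. The share of counts in the 77 rows, which is not TMM-scaled, was also lower in KO with vehicle and LPS. With Tg+PDBu that share was slightly higher in KO, at 0.227 ± 0.0254% against 0.205 ± 0.0138% in WT cultures. The lower Tg+PDBu level in KO was therefore not seen in each measure, and its dependence on the scaling was not tested. A row had to be far from vehicle in these WT libraries to be picked, so smaller differences elsewhere are partly built into the choice, and no test is given. Row 7395 had the higher level in KO with Tg+PDBu and with vehicle, by 2.13 and 1.99 on the log2 scale, while with LPS its difference was -0.23 by the TMM-scaled fit. Its mean CPM, which is not TMM-scaled, was 478 ± 83.0, 194 ± 44.7 and 308 ± 85.5 CPM in KO cultures with LPS, Tg+PDBu and vehicle. In WT cultures the same means were 368 ± 59.8, 33.04 ± 17.7 and 68.3 ± 24.8 CPM.

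The responses of male and female KO cultures were compared too. For the LPS response 0 of the 77 rows differed between the sexes at an adjusted p under 0.05 by edgeR, and 0 by DESeq2 and by limma voom, where 0.0% of all rows were called higher or lower by edgeR. At an unadjusted p under 0.05 the count was again 0 of the 77 rows, against 559 of all rows. The median male minus female difference was 0.23, with 58 of 77 rows above 0. For the Tg+PDBu response the counts were likewise 0 by each tool and 0 unadjusted, with 0.0% of all rows called by edgeR, and the median was 0.04. With 2 or 3 libraries per sex, these counts do not show that the sexes respond alike.

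In sorted microglia, 76 of the 77 rows had enough reads to be tested. The missing one, row 6894, had 42.8 CPM (median of 5) in KO cultures with LPS but at most 2.15 CPM in any sorted library. The levels of the 77 rows differed widely between the preparations. The 3 rows with the highest mean in sorted KO vehicle cells were rows 8772, 11877 and 37273, at 731 ± 87.4, 719 ± 76.5 and 658 ± 28.2 CPM (SD, n = 6). In KO vehicle cultures they had 27.0 ± 6.41, 63.4 ± 7.48 and 143 ± 35.9 CPM (n = 6). Across the 77 rows, mean levels in sorted and cultured cells correlated with a Spearman rho of 0.613. Age, tissue, dose, route, kit and RNA input (100 ng in culture, 0.97 ng sorted) all differ between the tables, and which of these goes with the levels was not tested.

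At 24 h after LPS more of the rows were higher than lower in sorted cells of each genotype. In KO mice 32 rows were higher and 6 lower than vehicle (edgeR, Benjamini-Hochberg over 15344 rows), where 12.6% and 10.8% of all rows were called higher and lower. In WT mice 40 were higher and 6 lower, where 14.1% and 11.9% of all rows were called. Library numbers formed 2 runs with vehicle and 24 h libraries of each genotype. Within the first run 24 rows were higher and 3 lower in KO, where 6.99% and 5.6% of all rows were called, and 31 and 3 in WT, where 8.11% and 6.04% were. Within the second run 10 were higher and 0 lower in KO, where 3.21% and 1.55% of all rows were called, and 19 and 1 in WT, where 6.52% and 3.81% were. The median log2 change was 0.51 in KO and 0.66 in WT, against -0.01 and 0.00 over all rows. Of the rows that met the LPS limit alone, 696 were tested here, and 262 were called higher in KO and 294 in WT, with medians of 0.48 and 0.49. KO and WT mice share no library in these comparisons. All 32 rows higher in KO were among the 40 higher in WT (100% and 80.0% of the lists), and 5 of the 6 lower rows were shared. The same overlap was not counted over all rows, so whether these shares exceed it is not known. The changes correlated across the 76 rows with a Spearman rho of 0.945, against 0.668 across 15344 rows. In KO the 25th and 75th percentiles of the change were 0.02 and 1.30 over the 76 rows, against -0.39 and 0.37 over all rows. A wider spread can raise such a correlation, so these values are not like for like.

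**Figure D3:**
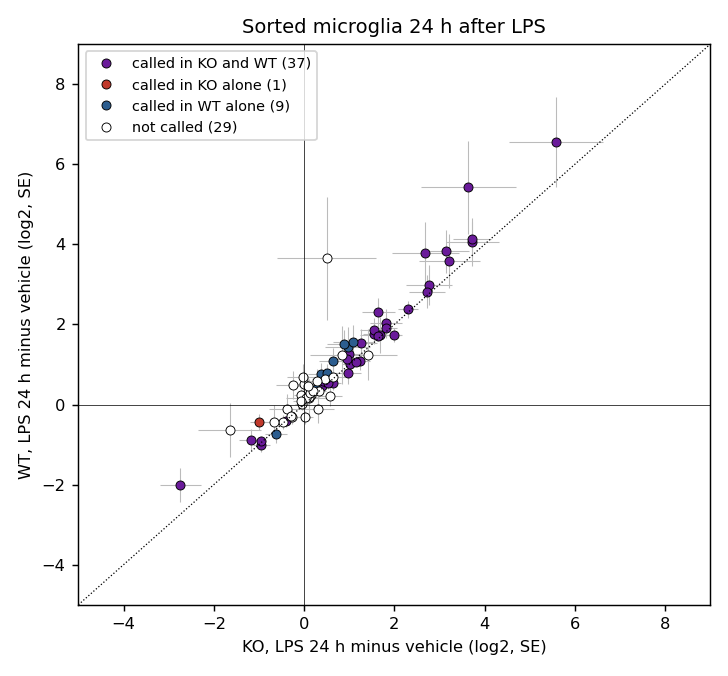
Log2 fold change 24 h after LPS against vehicle in sorted microglia, with SE, for 76 rows, KO on the horizontal and WT on the vertical axis, coloured by which genotype the row was called in; the dotted line marks equal change. 37 rows were called in each genotype, 1 in KO alone, 9 in WT alone and 29 in neither.

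Rows 22949 and 16779 had the largest called rises at a mean log2 CPM of at least 1. Row 22949 had 42.1, 124 and 283 CPM (lowest, median and highest of 7) in KO mice at 24 h and 8.79, 11.5 and 14.1 CPM in KO vehicle mice. In WT mice it had 50.5, 166 and 310 CPM at 24 h (n = 8) and 7.68, 11.0 and 17.4 CPM with vehicle. Neither pair of groups overlapped, and the log2 changes were 3.73 ± 0.59 in KO (edgeR, Benjamini-Hochberg adjusted p = 3.72e-05) and 4.06 ± 0.59 in WT (adjusted p = 1.01e-05). Row 16779 had 26.9, 60.6 and 95.5 CPM in KO mice at 24 h, against 2.20, 4.78 and 6.45 CPM with vehicle, and 30.4, 62.4 and 75.4 CPM in WT mice at 24 h, against 2.67, 3.45 and 4.51 CPM. Its changes were 3.72 ± 0.42 in KO (adjusted p = 4.91e-07) and 4.13 ± 0.43 in WT (adjusted p = 9.51e-08). In KO cultures the same row had 5.85, 7.03, 7.83, 8.32 and 10.6 CPM with LPS, against 5.22, 6.76 and 10.9 CPM with vehicle. Those culture groups overlapped, with a log2 change of 0.11 ± 0.30.

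The 2 rows with the widest gap in culture were near the detection limit in sorted cells. Row 13484 had 0 counts in all 6 WT vehicle libraries, which allows up to 3 counts or 0.0791 CPM over the group, and 95 counts over the 8 WT libraries at 24 h. The pooled 24 h level, 1.87 CPM, was 23.7-fold above that limit. WT female 24 h replicate 2 stood out in this pool, with 5.86 CPM against 0.680 to 1.96 CPM in the others. Row 15273 had 0 counts with vehicle and 39 at 24 h in WT mice, 9.71-fold above the same limit. In KO mice the vehicle libraries held 1 and 2 counts of rows 13484 and 15273, and the 24 h libraries 80 and 26 counts. The limit covers the counting error of the vehicle counts alone, and the error of the 24 h counts is not included.

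The 6 rows called lower at 24 h were a smaller share of the 76 than the lower calls were of all rows, so the falls are given as single rows. Row 6824 had 0.150, 1.93 and 6.49 CPM in KO mice at 24 h and 11.0, 17.5 and 23.2 CPM in KO vehicle mice. In WT mice it had 0.814, 2.88 and 11.2 CPM at 24 h and 12.4, 20.0 and 25.7 CPM with vehicle. The groups were apart in each genotype, with log2 changes of -2.74 ± 0.46 in KO (edgeR, Benjamini-Hochberg adjusted p = 7.05e-05) and -2.01 ± 0.42 in WT (adjusted p = 0.000659). In KO cultures LPS gave this row 11.1, 11.3, 12.5, 14.996 and 15.7 CPM, against 5.66, 9.55 and 13.6 CPM with vehicle, which overlapped. Row 7395 had 116, 157 and 228 CPM in WT mice at 24 h and 315, 349 and 412 CPM with vehicle, without overlap, a log2 change of -1.01 ± 0.18 (adjusted p = 0.000117). Row 5578 had 35.7, 63.4 and 79.3 CPM in KO mice at 24 h and 97.9, 137 and 161 CPM with vehicle, again without overlap, a change of -1.17 ± 0.27 (adjusted p = 0.00214). Within the second run of libraries alone some named calls were lost (edgeR, Benjamini-Hochberg): those of row 22949 in KO (adjusted p = 0.0755), row 6824 in KO and WT (0.0832 and 0.0639), row 7395 in WT (0.0878) and row 5578 in KO (0.196). The call of row 5578 was also lost within the first run (adjusted p = 0.0565).

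Sorted and cultured cells gave opposite calls for a few rows, and these included the 3 most abundant ones in sorted vehicle cells. Of the 76 rows tested in each table, 59 were called higher with LPS in KO cultures. In sorted cells at 24 h, 24 of them were called higher in KO and 31 in WT, or 40.7% and 52.5% of the 59 and 75% and 77.5% of the sorted lists. For 3 in each genotype the sorted call was lower. Shared and opposite calls were not counted over all rows. The rank correlation of the culture with the sorted change across the 76 rows was 0.217 for KO and 0.213 for WT, near the 0.244 and 0.218 found across 13382 rows. The rows with opposite calls, named after their values were seen, were 8772 and 11877 in each genotype, 2691 in KO and 37273 in WT.

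Row 11877 had 77.5, 135, 166, 182 and 210 CPM in KO cultures with LPS, against 53.6, 63.4 and 73.9 CPM with vehicle, all LPS libraries above all vehicle libraries. Its log2 change there was 1.27 ± 0.18 (edgeR, Benjamini-Hochberg adjusted p = 4.27e-06). In sorted KO cells it had 313, 351 and 376 CPM at 24 h, against 647, 706 and 801 CPM with vehicle, a change of -0.97 ± 0.13 (adjusted p = 4.40e-06). In sorted WT cells it had 297, 319 and 394 CPM at 24 h and 578, 675 and 755 CPM with vehicle, a change of -0.92 ± 0.12 (adjusted p = 3.41e-06). Every 24 h library of each genotype lay below every vehicle library. Row 8772 had 421, 556 and 606 CPM in sorted KO cells at 24 h, against 597, 714 and 844 CPM with vehicle, which overlapped. It changed by 1.54 ± 0.19 in KO cultures, and by -0.41 ± 0.14 in sorted KO cells (adjusted p = 0.0401) and -0.42 ± 0.14 in sorted WT cells (adjusted p = 0.0271).

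**Figure D4:**
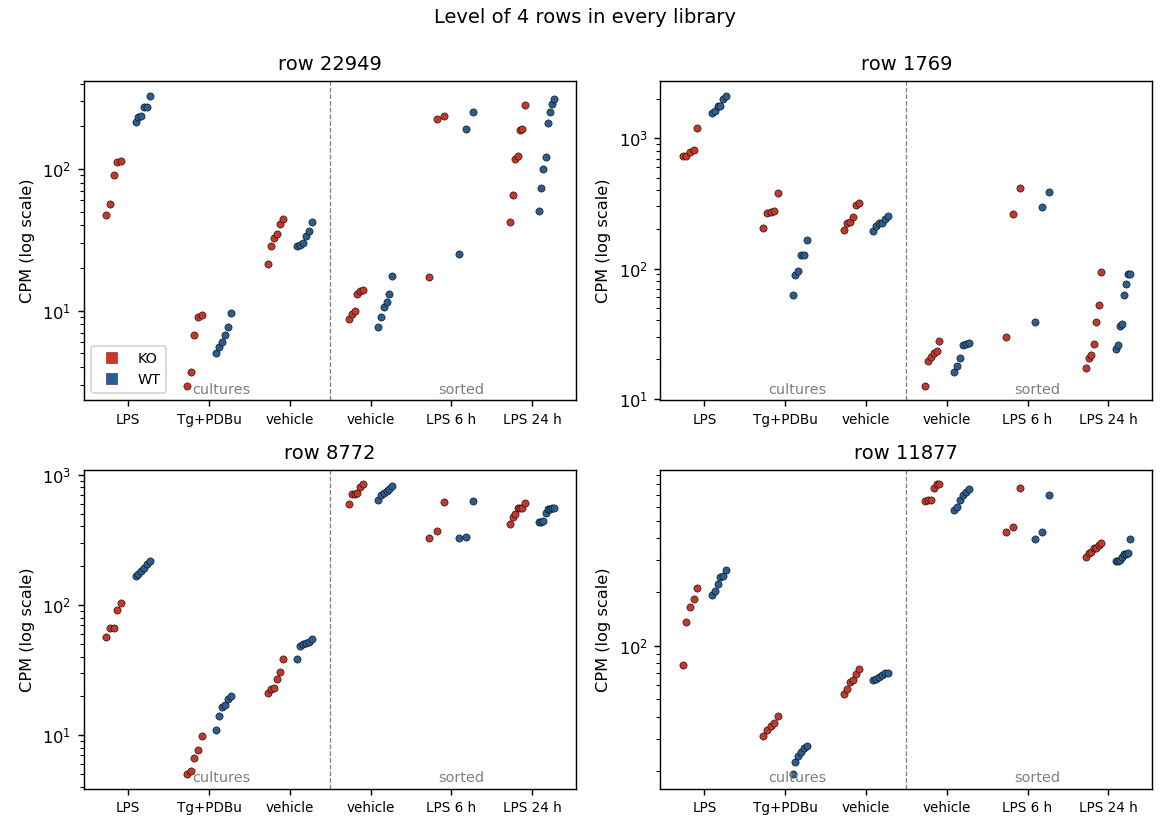
CPM on a log scale in every library for 4 rows, with KO left of WT, cultures left of the dashed line and sorted cells right of it, and points in order of value within a group. Rows 22949 and 1769 are high in all but 1 library of each genotype at 6 h in sorted cells, while rows 8772 and 11877 are higher with LPS in culture and mostly lower at 24 h in sorted cells, where row 8772 overlaps with vehicle in KO; 1 library of each genotype at 6 h lies inside or near the vehicle range.

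At 6 h after LPS, sampled in males, fewer of the rows were called. In KO males 15 were higher and 3 lower than vehicle (edgeR, Benjamini-Hochberg), where 4.27% and 2.85% of all rows were called. In WT males 20 were higher and 3 lower, where 6.73% and 3.73% of all rows were called. The median log2 change was 0.19 in KO and 0.31 in WT. The genotypes shared 13 of the higher rows (86.7% of the KO list and 65.0% of the WT list), and this overlap was not counted over all rows. These counts hang on single libraries: without KO 6 h replicate 1, 22 rows were higher and 11 lower in KO, where 7.66% and 7.07% of all rows were called. Without WT 6 h replicate 3, 26 were higher and 11 lower in WT, where 9.76% and 9.13% were. Leaving out any other 6 h or male vehicle library gave 0 to 7 higher and 0 to 4 lower rows in KO, and 7 to 13 higher and 0 or 1 lower rows in WT. In those fits 0.705% to 2.44% of all rows were called higher and 0.132% to 2.16% lower in KO, and 2.18% to 4.51% and 0.415% to 2.14% in WT. Fitting the compared groups alone gave 0 calls in each direction and genotype.

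Row 22949 had 17.4, 224 and 237 CPM in KO males at 6 h, against 9.51, 9.97 and 13.7 CPM in KO vehicle males. In WT males it had 25.0, 193 and 254 CPM at 6 h, against 7.68, 10.6 and 11.4 CPM with vehicle. The groups did not overlap, but 1 library of each genotype stayed near vehicle, KO replicate 1 and WT replicate 3. The log2 changes were 3.76 ± 0.85 in KO (edgeR, Benjamini-Hochberg adjusted p = 0.00942) and 3.92 ± 0.85 in WT (adjusted p = 0.00402), and the KO call was lost without KO vehicle male replicate 3 or KO 6 h replicate 2 or 3 (edgeR adjusted p of 0.0512, 0.0614 and 0.0567) and the call of each genotype by voom (0.140 in KO and 0.0941 in WT). Row 15480 had 11.8, 31.6 and 67.7 CPM in KO males at 6 h and 0.170, 3.72 and 6.15 CPM in KO vehicle males. In WT males it had 18.6, 34.4 and 36.0 CPM at 6 h and 1.34, 1.98 and 4.01 CPM with vehicle, and the groups were apart in each genotype. Its changes were 3.36 ± 0.76 (adjusted p = 0.00942) and 3.53 ± 0.77 (adjusted p = 0.00432). Among falling rows, row 6751 had 0.719, 1.97 and 2.41 CPM in KO males at 6 h, against 10.5, 10.6 and 13.5 CPM with vehicle, a change of -2.84 ± 0.69 (adjusted p = 0.0151). Row 5578 had 34.8, 38.2 and 82.1 CPM in KO males at 6 h and 119, 134 and 161 CPM with vehicle, without overlap. In WT males it had 32.7, 35.5 and 133 CPM at 6 h and 120, 148 and 189 CPM with vehicle, which overlapped. Its changes were -1.49 ± 0.40 (adjusted p = 0.0240) and -1.24 ± 0.40 (adjusted p = 0.0447). Row 2691 had 9.36, 12.2 and 14.1 CPM in WT males at 6 h and 17.5, 19.4 and 28.9 CPM with vehicle, a change of -0.94 ± 0.30 (adjusted p = 0.0415).

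These calls too hung on single libraries. In KO, the call of row 15480 was lost without 6 h replicate 3 (edgeR adjusted p = 0.0928), and that of row 6751 without vehicle male replicate 3 or 6 h replicate 2 or 3 (0.0533, 0.106 and 0.0781). That of row 5578 was lost in KO without vehicle male replicate 2 or 3 or 6 h replicate 2 or 3 (edgeR adjusted p of 0.0657 to 0.155). In WT the calls of rows 5578 and 2691 were lost without any one library other than 6 h replicate 3 (edgeR adjusted p of 0.0548 to 0.251 and 0.0526 to 0.214).

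Between 6 h and 24 h in males, most of the called rows were lower at the earlier time. In KO males 2 rows were higher and 13 lower at 6 h (edgeR, Benjamini-Hochberg), where 2.93% and 3.55% of all rows were called, and in WT males 0 were higher and 10 lower, where 2.28% and 2.78% were called. The lists of lower rows shared 8 rows, 61.5% of the KO list and 80.0% of the WT list, and this overlap too was not counted over all rows. Without WT 6 h replicate 3, 3 rows were higher and 17 lower in WT, where 4.55% and 5.83% of all rows were called. Without WT 6 h replicate 1 or 2, 3 were lower, where 0.509% and 0.68% were. In WT the lower count was also 6 and 5 without the 24 h male replicates 1 and 4, where 1.88% and 1.53% of all rows were called lower. In KO the higher count was 4 without 6 h replicate 1 and 1 without 6 h replicate 3 or 24 h male replicate 2, and the lower count was 8 without 6 h replicate 3. Of all rows, 3.41%, 1.15% and 2.02% were called higher in those 3 fits, and 1.36% lower without 6 h replicate 3. Row 9486 had 121, 141 and 173 CPM in KO males at 6 h, against 450, 542, 555 and 639 CPM in KO males at 24 h. All 6 h libraries lay below all 24 h libraries, with a log2 difference of -2.08 ± 0.30 (adjusted p = 0.000106). In WT males the difference was -1.76 ± 0.30 (adjusted p = 0.000962), with 148, 156 and 190 CPM at 6 h, against 297, 472, 594 and 595 CPM at 24 h. Row 31504, at 400, 416 and 538 CPM in WT males at 6 h and 1132, 1141, 1385 and 1489.6 CPM in WT males at 24 h, differed by -1.70 ± 0.25 (adjusted p = 0.000195). Row 19687 had 6.04, 9.57 and 12.7 CPM in KO males at 6 h and 23.8, 29.8, 35.4 and 44.1 CPM at 24 h. These were apart, with a difference of -1.99 ± 0.53 (edgeR adjusted p = 0.0207), and the call was lost without 6 h replicate 1 or 3 or 24 h male replicate 4 (0.0829, 0.0898 and 0.0564).

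Row 1769 went the other way in KO males, with 30.0, 262 and 413 CPM at 6 h, against 20.7, 21.5, 38.9 and 52.7 CPM in KO males at 24 h. It differed by 2.64 ± 0.66 (adjusted p = 0.0144), but KO 6 h replicate 1 lay inside the 24 h range, and the call was lost without 24 h male replicate 2 or 6 h replicate 3 (edgeR adjusted p of 0.0511 and 0.138) and by voom (0.109). In WT males this row had 38.7, 297 and 391 CPM at 6 h and 36.2, 37.4, 90.9 and 91.04 CPM at 24 h, and was not called. Row 6824 was the other row higher at 6 h in KO males, with 7.91, 12.0 and 12.5 CPM, against 0.150, 1.53, 1.91 and 3.11 CPM at 24 h. It differed by 2.51 ± 0.63 (edgeR adjusted p = 0.0144), and the call was lost without 6 h replicate 3 (0.0576).

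**Figure D5:**
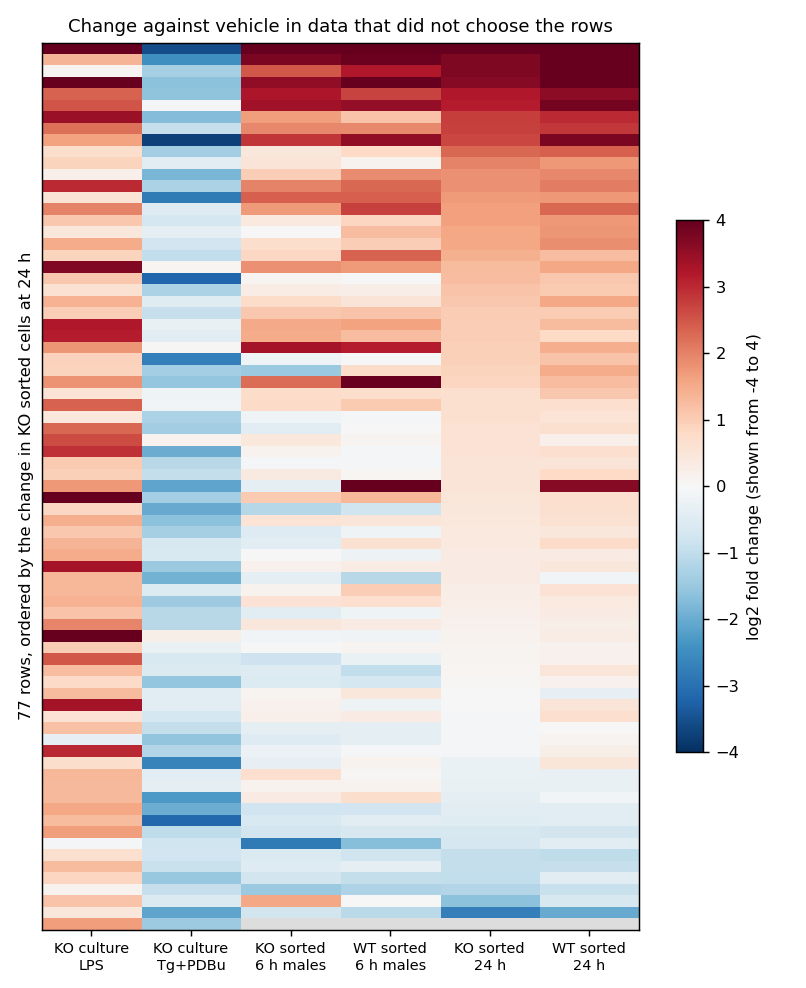
Log2 fold change against vehicle for the 77 rows in 6 comparisons that did not choose them, KO columns left of their WT columns, ordered by the change in sorted KO cells at 24 h; red is higher, blue is lower, grey was not tested and colours end at -4 and 4. The first column is nearly all red and the second nearly all blue, while the sorted columns hold 32 and 40 called rises at 24 h and 6 called falls each.

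In sorted cells no row was called between KO and WT. With vehicle, 0 of 76 rows were called by edgeR with Benjamini-Hochberg adjustment, and 0 by DESeq2 and by limma voom. Among all rows, 0.0196% were called higher in KO and 0.00652% lower. At an unadjusted p under 0.05 there were 3 of the 76 rows, against 728 of 15344. At 24 h the counts were 0 by each tool and 1 unadjusted, where edgeR called 0.013% of all rows higher and 0.00652% lower. In males at 6 h they were 0 by each tool and 0 unadjusted, where 0.00652% and 0.013% of all rows were called. The 24 h response itself, KO minus WT, gave 0 calls by each tool and 0 unadjusted, with 0.0% of all rows called by edgeR. Its median was -0.18 over the 76 rows and -0.02 over all rows, and 61 of 76 were below 0. Single rows had wide errors, such as -0.33 ± 0.74 for row 22949 and -0.74 ± 0.61 for row 6824 (SE). The counts of 0 therefore do not show that KO and WT cells are alike in these rows. For the sexes, the 24 h response gave 0 calls by each tool and 0 unadjusted, with 0.0% of all rows called by edgeR.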

How the data were processed

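RNA was sequenced from 34 culture and 33 sorted libraries of mouse microglia. The authors deposited raw counts, one whole number per row and library, and the tables name no gene. The submitters' processing notes list STAR 2.7.10a, Salmon 1.10.1, Trim Galore 0.6.7 and the build GRCm38, without role or order. All values here were computed from those counts. Rows were kept by filterByExpr (minimum count 10, minimum total 15), leaving 15979 rows in culture and 15344 sorted. Each table was scaled by TMM and fitted in one model with a mean per genotype, sex and treatment, with the sexes weighted equally, by the quasi-likelihood F test of edgeR 4.0.16 in R 4.3.3. Rows were called at a Benjamini-Hochberg adjusted p under 0.05, two-sided. SE is the log2 change divided by the square root of F. The code was tested on simulated data. Alternatives were RLE scaling, no filter, DESeq2 1.42.0, limma 3.58.1 voom, the compared groups alone, a replicate block, sorted library runs, and each library left out.

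The members and lists were chosen with earlier results of these data known. WT culture values chose the rows, so comparisons resting on them carry no test. Named rows were the 2 with the largest difference between stimuli, those at the limits, and in each tested comparison at most 2 rises and 2 falls among called rows whose mean log2 CPM reached 1 (prior count 2). Row pairs sharing reads could not be assessed, and marker lists could not be applied. Replicates are separate samples per the labels, but where separate cultures or mice are not stated, p-values measure the spread between these samples, which may be technical. Reads carry no molecular identifiers, and intervals by counting cover counting error alone.

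Libraries from KO cultures with the same number deviated together from their group means in all 12 pairs (correlations 0.116 to 0.303), so the numbers were taken to pair them, on the data alone. Over all culture pairs the lowest value was 0.0824. No values for libraries with different numbers were set beside these. The main fit left the pairing out, and the replicate block by culture number, among the alternatives, included it. Title numbers of sorted libraries name different mice, and 3 of 24 correlations were above 0.1.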

Additional observations from a re-analysis of the deposited data

Results flagged for a closer look

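Of 190 groups of 4 to 10 libraries examined for the named rows, 9 had a library far from the others, and chance alone gives about 1 in 20. In sorted cells, KO vehicle male replicate 2 had 0.170 CPM of row 13484, 1 count, where the other 5 had 0. WT female 24 h replicate 2 had 5.86 CPM of that row, against 0.680 to 1.96 CPM in the other 7. WT vehicle male replicate 1 had 11.4 CPM of row 16569, against 17.1 to 20.0 CPM. KO vehicle male replicate 3 had 53.7 CPM of row 19687, against 8.79 to 14.2 CPM, and 40.6 CPM of row 4209, against 53.5 to 59.4 CPM. In cultures, KO Tg+PDBu female replicate 2 had 115 CPM of row 7395, against 207 to 226 CPM. WT Tg+PDBu male replicate 3 had 2.46 CPM of row 15480, against 4.63 to 5.70 CPM. KO LPS male replicate 2 had 1202 CPM of row 1769, against 734 to 808 CPM, and KO vehicle female replicate 3 had 14.9 CPM of row 4209, against 6.63 to 8.96 CPM.

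Some rows also differed between the 6 h and 24 h libraries of sorted males, which differ in run of library numbers as well as in time after LPS. In KO 15 of 76 rows were called, 2 higher and 13 lower at 6 h, where 2.93% and 3.55% of all rows were called. In WT 10 were called, 0 higher and 10 lower, where 2.28% and 2.78% of all rows were. Whether this difference between times differs between the genotypes was not tested.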

How the results depend on the processing

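In KO cultures no alternative moved a count of the 77 rows by over 1.5 times. Single libraries left out gave 50 to 63 rows higher with LPS, 46 to 54 lower with Tg+PDBu and 71 to 76 lower with Tg+PDBu than with LPS, and the replicate block by culture number gave 64, 60 and 75. In sorted cells the block by title number, which names different mice, gave 32 rows higher and 5 lower in KO and 39 and 6 in WT at 24 h. It changed no other count by over 1.5 times except that 1 row was then higher at 6 h than at 24 h in WT males. At 24 h the second run of libraries alone gave 10 higher and 0 lower in KO and 19 and 1 in WT, and the first run alone 3 lower in each. Fewer libraries entered those fits. At 6 h against vehicle, voom gave 3 higher in KO and 9 in WT, DESeq2 7 lower in each, RLE 5 lower in WT, and the compared groups alone 0 in either direction and genotype. Libraries left out one at a time gave 0 to 22 higher and 0 to 11 lower in KO and 7 to 26 higher and 0 to 11 lower in WT. For 6 h against 24 h, DESeq2 gave 2 higher in WT, voom 1 higher in KO, and the compared groups alone 0 higher in KO and 3 lower in WT. Single libraries left out gave 1 to 4 higher and 8 to 15 lower in KO and 0 to 3 higher and 3 to 17 lower in WT. Further fits were added after seeing the data. Without the 3 libraries of WT female culture 3, KO cultures had 64 rows higher with LPS and 58 lower with Tg+PDBu. Without the 2 sorted 6 h libraries that stood apart, which were chosen by their values, 11 rows were lower in KO and 12 in WT at 6 h against vehicle (8.32% and 9.69% of all rows), and 6 were higher in KO (4.25%) and 3 higher and 18 lower in WT (5.58% and 6.71%) against 24 h. No named row changed sign in a tested comparison under any alternative run, but the split of calls over all rows with LPS in KO cultures turned to 1919 higher and 1461 lower with RLE scaling. The causes of these moves were not tested.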
